A study of Mus musculus with 12 samples.

Results

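The genes that handle zinc were read in skin RNA-seq of wild-type (WT) and *Cdc42* knockout (KO) mice, with or without zinc oxide nanoparticles (ZnO NPs). They were the 4 metallothioneins (*Mt1* to *Mt4*), the zinc sensor *Mtf1*, 11 exporters (*Slc30a1* to *Slc30a10* and *Tmem163*) and the 14 importers *Slc39a1* to *Slc39a14*. They were chosen by name, through the gene identifiers of the count table, and all 30 were found among its 52636 genes. Of these, 26 passed the filter on low counts and were tested, and *Slc30a3*, *Slc30a8*, *Slc30a10* and *Tmem163* did not pass.

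The dorsal skin of mice labelled C57BL/6 (C57BL/6J in the study's methods) and 3 months of age was taken on day 14 from 4 groups of 3 mice. KO mice were *Cdc42* flox/flox mice with a Cre recombinase driven by the keratin K5 promoter, so the deletion is limited to cells that use, or descend from cells that used, this promoter, and all other skin cells keep the gene. WT mice lacked Cre and were heterozygous or homozygous for the floxed allele, and the methods describe the KO mice as female. The WT and KO groups received the vehicle, normal saline with hydroxypropyl methylcellulose (HPMC), and the groups labelled WT+ZnO NPs and KO+ZnO NPs received ZnO NPs in that vehicle on shaved skin throughout the 14 days.

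Zinc cannot diffuse through membranes, and cells keep the free ion very low. ZIP proteins (the *Slc39a* genes) bring zinc into the cytosol from outside or from organelles, ZnT proteins (the *Slc30a* genes) move it out of the cytosol, and metallothioneins, small proteins rich in cysteine, bind it. When cytosolic zinc rises, the transcription factor MTF1 binds metal response elements and switches on metallothionein genes and *Slc30a1*. The transcripts are therefore a common readout of how much zinc reaches a tissue, and zinc deficiency is known for its lesions of the skin.

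Each library held between 21076320 and 28867802 counts. The transcript of *Cdc42* lay at 606 to 628 CPM (CPM, the count scaled to a common library size with TMM factors) in WT skin and at 415 to 464 in KO skin, while the libraries labelled WT+ZnO NPs held 311 to 350.1, below every KO library, against 314 to 453 in those labelled KO+ZnO NPs. The *Cdc42* transcript was not called between KO and WT skin (log2 fold change -0.49 ± 0.15, adjusted p = 0.0653, edgeR). It was lower in WT+ZnO NPs than in WT libraries (-0.92 ± 0.15, adjusted p = 0.000799). Its level thus went against the label WT+ZnO NPs, but bulk skin mixes cells with and without the deletion, so it does not settle the genotype. Treated groups are named here by their label throughout. Y-linked transcripts summed to 192 to 242 CPM in 5 libraries, namely the 3 labelled WT+ZnO NPs, KO replicate 1 and KO+ZnO NPs replicate 1, and to at most 0.0504 in the other 7. Of 8 marker genes of the growing hair follicle 7 were tested, and their summed level was 4.53 to 8.12 CPM in WT skin, 752 to 4659 in WT+ZnO NPs libraries, 14.5 in KO replicate 2 against 3383 and 12064 in the other KO libraries, and 184 in KO+ZnO NPs replicate 3 against 6321 and 8597 in the other libraries of that label. Markers of macrophages summed to 1109 to 1717 CPM in WT, 680.0 to 1304 in KO, 66.3 to 136 in WT+ZnO NPs and 98.9 to 244 in KO+ZnO NPs libraries. WT+ZnO NPs and WT libraries were thus fully separated in Y-linked, follicle and macrophage transcripts as well as in treatment, and also in the summed markers of adipocytes (637 to 1379 against 4501 to 6458 CPM), endothelial cells (76.6 to 184 against 415 to 442), neutrophils, melanocytes, and basal (6177 to 10699 against 4162 to 5899) and differentiated keratinocytes. KO+ZnO NPs and KO libraries were separated in macrophage markers, and in those of fibroblasts (15421 to 20884 against 22327 to 36210 CPM), T cells (15.1 to 25.0 against 35.9 to 47.9), neutrophils (18.6 to 68.1 against 136 to 652) and melanocytes. KO and WT libraries were separated in the markers of fibroblasts (22327 to 36210 against 6730 to 13390), adipocytes (1551 to 3139 against 4501 to 6458), skeletal muscle (959 to 3391 against 4001 to 5571), endothelial cells, basal and differentiated keratinocytes, melanocytes and growing follicles. For any gene these differences and the treatment or genotype cannot be told apart within the libraries they separate. In bulk skin, moreover, fewer cells of a type and less RNA per cell cannot be told apart.

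Compared with WT skin, the libraries labelled WT+ZnO NPs had higher levels of *Mt1*, *Mt2*, *Mt4*, *Slc30a1*, *Slc30a2*, *Slc30a9*, *Slc39a5*, *Slc39a6* and *Slc39a10* and lower levels of *Slc30a7*, *Slc39a1*, *Slc39a7* and *Slc39a12*. These 13 called members of 26 tested stand beside 43.0% of all 18822 genes tested that were called in this comparison, 20.8% higher and 22.1% lower. Called means past a threshold of 0.05 in edgeR (quasi-likelihood test), after Benjamini-Hochberg adjustment of p over all genes tested. The skin of *Cdc42* KO mice given ZnO NPs had 5 called members compared with KO skin, higher *Mt1*, *Mt2* and *Slc39a11* and lower *Slc39a1* and *Slc39a13*, beside 14.7% of all genes (6.57% higher, 8.09% lower). *Mt1*, *Mt2* and *Slc39a1* were called in both treated comparisons, which share no library, each in the same direction. They were 23.1% of the calls among members in WT and 60% of those in KO, beside 22.9% and 67.2% for all genes.

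**Figure D1:**
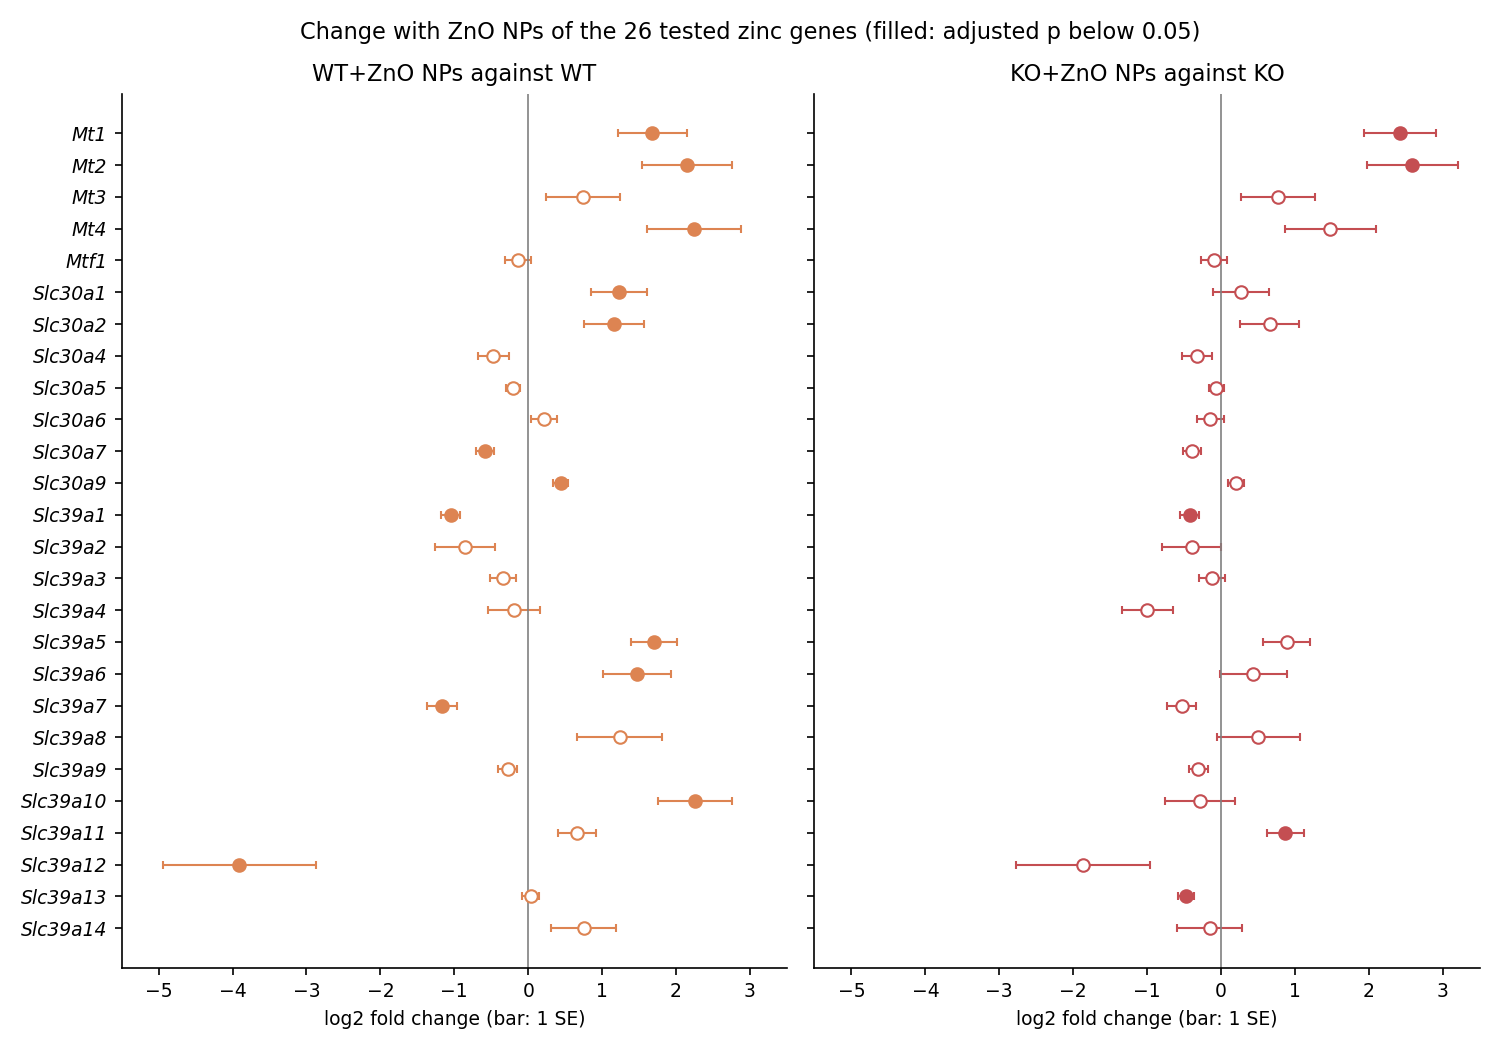
Log2 fold change (horizontal axis, bar: 1 SE) of each of the 26 tested zinc genes between WT+ZnO NPs and WT libraries (left) and between KO+ZnO NPs and KO libraries (right), with filled points for an adjusted p below 0.05. *Mt1* and *Mt2* lie between 1.68 and 2.59 in both panels, whereas *Slc30a1* and *Slc39a10* lie at 1.23 and 2.26 on the left and at 0.27 and -0.28 on the right, and the point of *Slc39a12* rests on groups with hardly any counts, so its size cannot be read as a fold.

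Between genes, levels were compared as CPM per kilobase of exon. In WT skin *Mt1* was the highest of the members at 158 (range 116 to 225), followed by *Slc39a1* at 70.8 (62.3 to 79.9) and *Mt4* at 64.5 (32.9 to 95.4). *Slc39a1* and *Mt4* overlapped in WT skin, while the next member, *Slc30a1* at 13.1 (12.8 to 13.2), was below every library of the leading 3 genes. Neighbours further down the order lay close together: *Slc39a11*, *Slc39a3*, *Slc30a4* and *Slc39a6* had means of 12.5, 11.8, 10.96 and 10.9 in WT, with overlapping libraries. At the lower end stood *Slc30a2*, *Slc39a4*, *Slc39a5* and *Slc39a12*, with WT means of 0.553, 0.527, 0.383 and 0.162. *Mt1* made up 77.4% to 94.2% of the summed metallothionein CPM of a library, so a sum over the family is mostly a reading of *Mt1*.

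**Figure D2:**
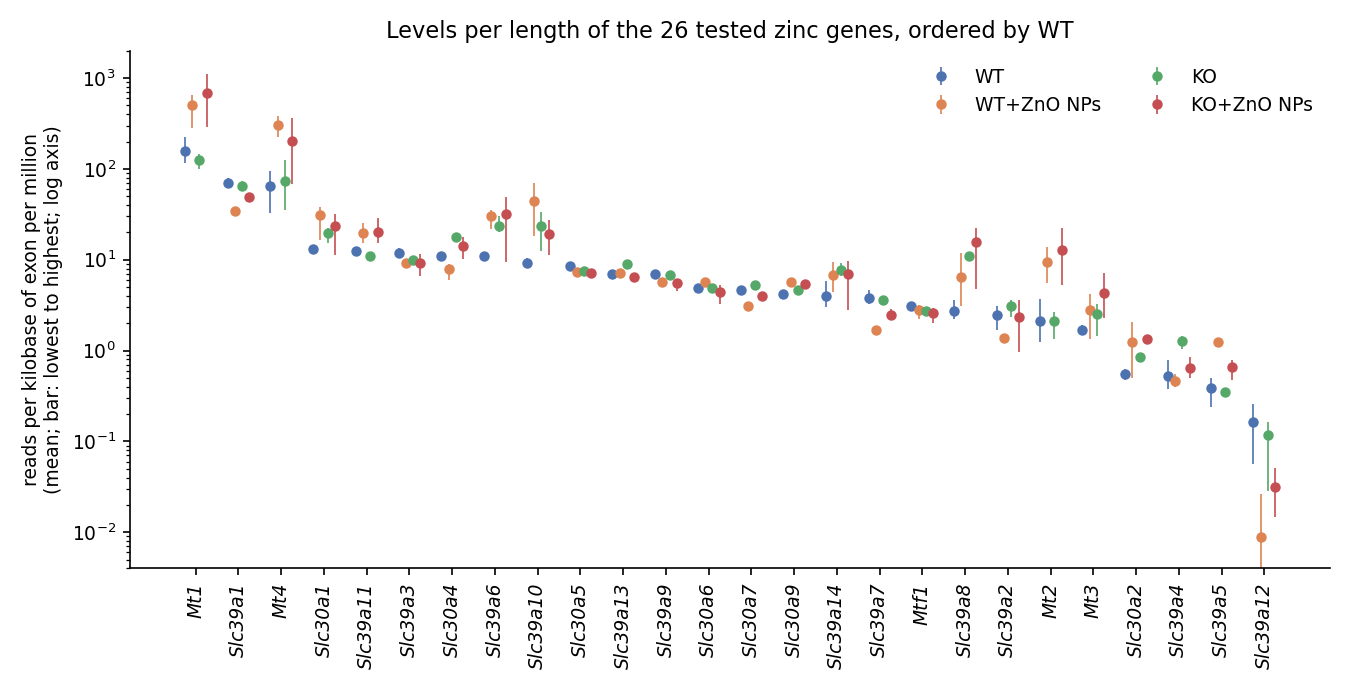
Level of the 26 tested zinc genes as CPM per kilobase of exon (vertical log axis) in each group, ordered by the WT mean, with the point at the mean and the bar from the lowest to the highest of 3 libraries. *Mt1* leads in all 4 groups (158, 506, 127 and 678 in WT, WT+ZnO NPs, KO and KO+ZnO NPs), *Slc39a1* drops from 70.8 to 34.3 between WT and WT+ZnO NPs, and the bar of *Slc39a12* in WT+ZnO NPs runs off the axis because its lowest libraries are at 0.

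*Mt1* (ENSMUSG00000031765) maps to GRCm38 chromosome 8, 94179082 to 94180327, plus strand, next to *Mt2* (94172664 to 94173568), *Mt3* (94152607 to 94154146) and *Mt4* (94137197 to 94139031). *Mt1* and *Mt2* are the members made in most tissues and are the classical targets of MTF1, *Mt3* is known from brain, and *Mt4* from stratified epithelia such as epidermis. The promoters are shown because MTF1 acts on these genes through metal response elements. The core of the metal response element was searched on both strands as TGCACNC and TGCGCNC, where N is any base. The patterns differ at 1 position, so a site counts for 1 of them at most. Among 32851 RefSeq promoters of 300 bases (250 before and 50 after the start), 25.7% held at least 1 core, 7.11% at least 2, 1.97% at least 3 and 0.52% at least 4. *Mt1* held 3, *Mt2* held 4, and *Mt3* and *Mt4* held 1 each. The promoters of the 3 members with called changes are given 5′ to 3′ on the plus strand of GRCm38.p6, with the cores in capitals and, on the opposite strand, read as their complement.
*Mt1*, chr8:94178839-94179138: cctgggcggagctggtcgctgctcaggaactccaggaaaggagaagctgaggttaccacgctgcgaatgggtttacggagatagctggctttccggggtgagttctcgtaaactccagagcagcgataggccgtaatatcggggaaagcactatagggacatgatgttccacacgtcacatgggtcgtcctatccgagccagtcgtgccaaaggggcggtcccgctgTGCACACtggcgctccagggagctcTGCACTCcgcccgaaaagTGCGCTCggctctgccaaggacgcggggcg
*Mt2*, chr8:94172368-94172667: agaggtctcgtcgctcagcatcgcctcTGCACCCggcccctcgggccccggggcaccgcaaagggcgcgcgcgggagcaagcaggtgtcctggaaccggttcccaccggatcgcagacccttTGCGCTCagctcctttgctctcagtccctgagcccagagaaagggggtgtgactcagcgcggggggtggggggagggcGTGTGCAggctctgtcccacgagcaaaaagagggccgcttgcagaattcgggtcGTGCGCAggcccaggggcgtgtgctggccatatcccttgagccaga
*Mt4*, chr8:94136954-94137253: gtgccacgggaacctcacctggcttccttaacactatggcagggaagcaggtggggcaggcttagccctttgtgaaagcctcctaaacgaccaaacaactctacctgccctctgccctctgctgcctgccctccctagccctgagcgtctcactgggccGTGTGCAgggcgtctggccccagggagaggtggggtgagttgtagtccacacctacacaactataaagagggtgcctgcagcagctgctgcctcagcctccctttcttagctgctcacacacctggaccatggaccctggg
The 3 cores of *Mt1* are all on its own strand and lie within the last stretch of the window around the start site, those of *Mt2* are spread over the window on both strands, and the core of *Mt4* is on the opposite strand. A match of these letters is a description of the window and was not tested as a binding site.

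In WT skin *Mt1* was at 144, 279.8 and 165 CPM in replicates 1 to 3, and the treated WT libraries held 354, 808 and 728 CPM. KO skin held 183, 167 and 125 CPM, and KO+ZnO NPs libraries 779, 1394 and 361 CPM. Every treated library was thus above every vehicle library of either genotype, and the treated libraries spread widely. The mean rose from 196 ± 72.9 (SD, n = 3) to 630.1 ± 242 CPM in WT, a log2 fold change of 1.68 ± 0.47 (SE, edgeR's quasi-likelihood test, adjusted p = 0.0155). In KO it rose from 158 ± 29.8 to 844 ± 519.9 CPM, a log2 fold change of 2.42 ± 0.48 (adjusted p = 0.0134). With 3 libraries a group, an exact permutation test of a single gene cannot go below 0.1, so the tests rest on the spread shared across genes.

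*Mt2* was at 0.839, 2.18 and 0.722 CPM in WT and 3.24, 5.30 and 8.19 in WT+ZnO NPs libraries, from 17 to 62 counts per library in WT and 81 to 207 in WT+ZnO NPs. KO libraries held 1.57, 1.37 and 0.793 CPM, and KO+ZnO NPs libraries 6.33, 13.1 and 3.14. The order of the libraries within KO+ZnO NPs, replicate 2 above 1 above 3, was that of *Mt1*. The log2 fold change of *Mt2* was 2.15 ± 0.60 in WT (adjusted p = 0.0155) and 2.59 ± 0.61 in KO (adjusted p = 0.0223). Of the 588 exonic bases of *Mt2*, 73.5% are shared with *Gm45774*, a gene of a single exon on the opposite strand, and whether strand was used in the counting is not given in the sources used here, so the level of *Mt2* is uncertain and reads of the pair cannot be told apart without strand. *Gm45774* itself held 1, 2 and 2 counts in WT and 70, 75 and 35 in WT+ZnO NPs libraries (adjusted p = 0.000101), and 7, 7 and 3 in KO against 28, 39 and 18 in KO+ZnO NPs (log2 fold change 2.45 ± 0.50, adjusted p = 0.0139).

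*Mt4*, the epithelial member, was at 38.0, 13.1 and 25.97 CPM in WT and 89.5, 150.3 and 125 in WT+ZnO NPs libraries, with no overlap. In KO it was at 50.1, 13.9 and 24.0 and in KO+ZnO NPs at 145, 73.7 and 26.9 CPM, and these overlapped. Its log2 fold change was 2.24 ± 0.63 in WT (adjusted p = 0.0155), and 1.48 ± 0.62 in KO (adjusted p = 0.124). The value in KO was 0.78 without KO+ZnO NPs replicate 1 and 2.11 without KO replicate 1, and passed in neither (adjusted p = 0.375 and 0.0693). *Mt3* did not pass the test in any comparison, at 1.72, 2.04 and 1.61 CPM in WT and 4.48, 1.42 and 3.09 in WT+ZnO NPs libraries, and at 1.53, 3.45 and 3.08 in KO and 2.44, 7.71 and 3.70 in KO+ZnO NPs libraries, with log2 fold changes of 0.74 and 0.78. With a replicate left out, these ranged from 0.33 to 1.07 in WT and from 0.21 to 1.08 in KO. The median log2 fold change of the 4 metallothioneins was 1.92 in WT and 1.95 in KO, beside 0.06 and 0.01 over all genes tested.

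**Figure D3:**
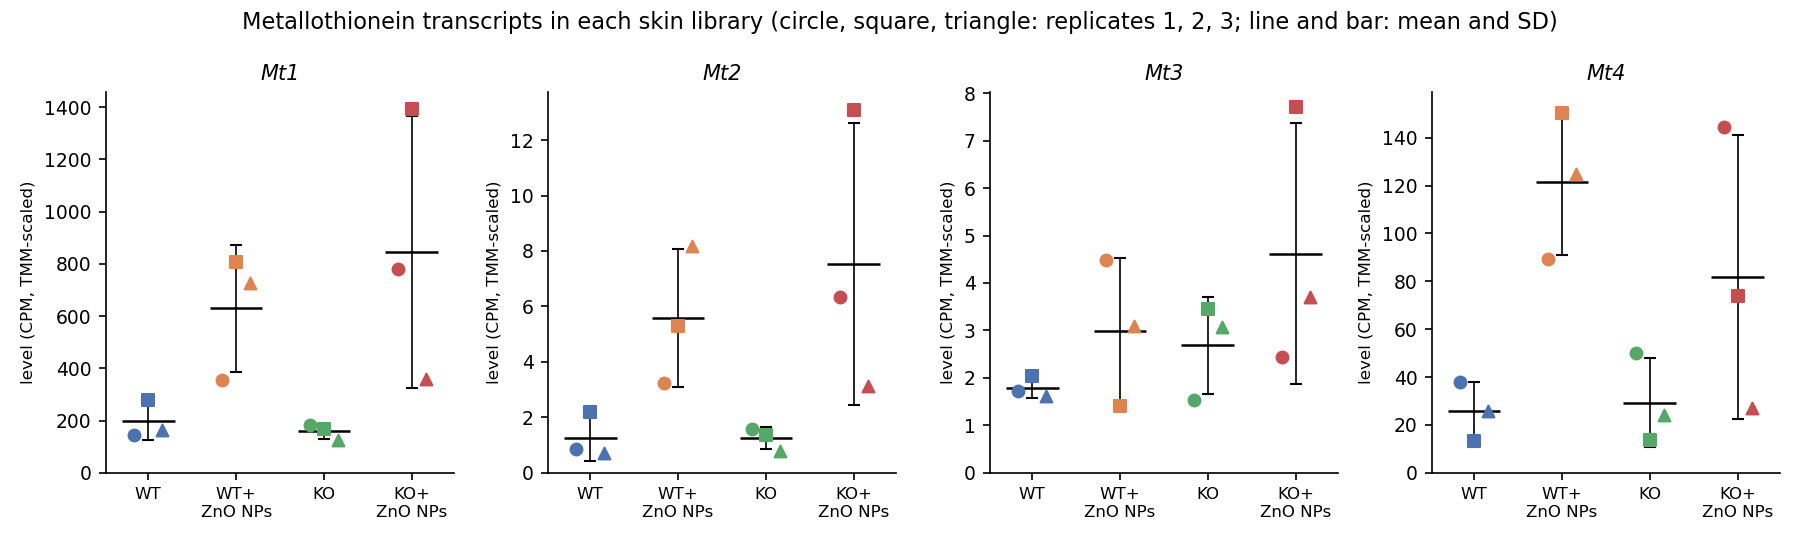
Level of *Mt1*, *Mt2*, *Mt3* and *Mt4* in CPM (vertical axes from 0) in each of 12 libraries, with the line at the mean and the bar at 1 SD of 3 libraries. *Mt1* and *Mt2* are higher in every treated library than in any vehicle library, *Mt4* is separate only between WT (13.1 to 38.0) and WT+ZnO NPs (89.5 to 150.3), and *Mt3* overlaps in both treated comparisons.

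In 1 fit the Y-positive replicate 1 of KO and of KO+ZnO NPs were left out together. All other libraries stayed in that fit for the spread, the Y-positive WT+ZnO NPs libraries among them. The rise of *Mt1* and *Mt2* in the KO comparison also passed the test there, at 2.59 (adjusted p = 0.0327) for *Mt1* and 2.90 (adjusted p = 0.0472) for *Mt2*. It was not called without KO replicate 2 and KO+ZnO NPs replicate 3, the libraries with few follicle transcripts, at 2.84 (adjusted p = 0.0565) for *Mt1* and 3.04 (adjusted p = 0.0704) for *Mt2*, nor with only the groups compared in the fit (adjusted p = 0.0511 and 0.0595). Single libraries decided whether it passed the threshold: for *Mt1* the adjusted p was 0.0592 without KO replicate 2 and 0.0517 without KO replicate 3, and for *Mt2* it was 0.0786, 0.0781 and 0.0640 without KO replicate 2, KO replicate 3 and KO+ZnO NPs replicate 2, the last with a log2 fold change of 1.94. In the WT comparison, in which all treated and no vehicle libraries held Y-linked transcripts, *Mt1* had a log2 fold change of 1.60 (adjusted p = 0.133) with these transcripts as a covariate and 1.06 (adjusted p = 0.342) with the follicle markers. *Mt2* had 2.08 (0.127) and 1.48 (0.313) in the same fits. *Mt4* moved most, to 0.80 (adjusted p = 0.388) and 0.36 (adjusted p = 0.725). Without WT replicate 1 the adjusted p of *Mt1* was 0.0601 and that of *Mt2* 0.0586, and without WT replicate 3 they were 0.0574 and 0.0592. That of *Mt2* was 0.0615 without WT+ZnO NPs replicate 3, that of *Mt4* was 0.0603 without WT replicate 2, and the log2 fold change of *Mt2* was 2.82 without WT replicate 2.

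The metallothioneins did not pass the test between genotypes. Between KO and WT skin the log2 fold change was -0.31 ± 0.46 for *Mt1* (adjusted p = 0.721) and -0.01 ± 0.60 for *Mt2* (adjusted p = 0.995). Between KO+ZnO NPs and WT+ZnO NPs libraries it was 0.42 ± 0.46 (adjusted p = 0.604) and 0.43 ± 0.57 (adjusted p = 0.676). The difference between the 2 treatment effects, as an interaction term, was 0.74 ± 0.65 for *Mt1* (adjusted p = 0.501), 0.44 ± 0.83 for *Mt2* (adjusted p = 0.773) and -0.76 ± 0.85 for *Mt4* (adjusted p = 0.607). With a replicate left out, the interaction ranged from 0.15 to 1.08 for *Mt1*, from -0.25 to 0.83 for *Mt2* and from -1.46 to -0.13 for *Mt4*. The standard errors are wide, and these values do not show that the metallothionein response was the same in both genotypes.

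*Mtf1*, the zinc sensor itself (chromosome 4, 124802104 to 124849800), varied little among the 12 libraries. It was at 30.4, 26.9 and 25.0 CPM in WT, 28.6, 26.5 and 19.8 in WT+ZnO NPs, 26.5, 21.9 and 25.1 in KO and 24.1, 18.1 and 26.3 in KO+ZnO NPs libraries, overlapping throughout. Its log2 fold change was -0.14 ± 0.18 in WT (adjusted p = 0.561) and -0.10 ± 0.18 in KO (adjusted p = 0.732), and its promoter window held no core. Of 6 other genes described as MTF1 targets, 1 was called in WT+ZnO NPs against WT, 16.7% beside 43.0% of all genes. This was *Gclc*, which encodes the catalytic subunit of the enzyme that begins glutathione synthesis, at 37.4, 36.9 and 36.1 CPM in WT and 85.3, 116 and 113 in WT+ZnO NPs libraries (log2 fold change 1.51 ± 0.26, adjusted p = 0.00116), with 0.50 in KO (adjusted p = 0.203). None of the 6 was called in KO+ZnO NPs against KO, beside 14.7% of all genes. In KO against WT 1 of 6 was called, beside 8.18% of all genes: *Selenow*, a selenoprotein, was lower in KO skin (log2 fold change -0.93 ± 0.24, adjusted p = 0.0420).

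Of the 7 exporters tested, *Slc30a1*, *Slc30a2* and *Slc30a9* rose and *Slc30a7* fell in WT+ZnO NPs libraries, 57.1% beside 43.0% of all genes, and none was called in KO+ZnO NPs against KO, beside 14.7% of all genes. *Slc30a1* (chromosome 1, 191906767 to 191913247) encodes ZnT1, the exporter of the plasma membrane. Its promoter held 2 cores, both on the opposite strand, in capitals here as for the metallothioneins.
*Slc30a1*, chr1:191906531-191906830: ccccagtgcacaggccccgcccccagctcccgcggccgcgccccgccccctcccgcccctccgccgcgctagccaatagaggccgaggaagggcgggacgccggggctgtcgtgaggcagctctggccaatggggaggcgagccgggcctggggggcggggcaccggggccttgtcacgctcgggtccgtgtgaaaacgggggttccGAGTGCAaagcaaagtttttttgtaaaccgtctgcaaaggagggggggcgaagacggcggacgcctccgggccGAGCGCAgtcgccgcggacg
It was at 69.0, 69.5 and 67.3 CPM in WT and 87.0, 196 and 201 in WT+ZnO NPs libraries, all of the latter above all of the former. In KO it was at 117, 81.0 and 112 and in KO+ZnO NPs at 169, 146 and 59.2 CPM, overlapping, with KO+ZnO NPs replicate 3 below every other library of the series. The log2 fold change was 1.23 ± 0.38 in WT (adjusted p = 0.0239) and 0.27 ± 0.38 in KO (adjusted p = 0.648), and the interaction was -0.96 ± 0.53 (adjusted p = 0.270), so a difference between the genotypes was not shown. The rise in WT was 0.75 (adjusted p = 0.335) with the Y-linked and 0.16 (adjusted p = 0.838) with the follicle transcripts as a covariate, and its adjusted p was 0.0636 to 0.0849 without any WT library or WT+ZnO NPs replicate 2 or 3.

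*Slc30a9*, which exports zinc from mitochondria, was at 54.2, 53.3 and 49.6 CPM in WT and 77.5, 66.3 and 68.9 in WT+ZnO NPs libraries (log2 fold change 0.44 ± 0.11, adjusted p = 0.00811), and at 61.7, 55.6 and 56.4 in KO and 59.3, 71.8 and 69.2 in KO+ZnO NPs libraries (0.21, adjusted p = 0.209). *Slc30a7*, which loads zinc into the Golgi for secreted enzymes, was at 55.3, 49.8 and 50.9 CPM in WT and 33.6, 38.3 and 32.1 in WT+ZnO NPs libraries and fell by 0.58 ± 0.12 on the log2 scale (adjusted p = 0.00340). In KO it was at 51.3, 65.4 and 57.6 CPM and in KO+ZnO NPs at 47.2, 45.5 and 40.6, again without overlap, at a log2 fold change of -0.39 ± 0.12 that missed the threshold (adjusted p = 0.0548). These changes were small and even across the libraries of a group. With the follicle covariate the values in WT were 0.45 for *Slc30a9* (adjusted p = 0.116) and -0.48 for *Slc30a7* (adjusted p = 0.127), and with the Y-linked covariate 0.48 (0.0634) and -0.53 (0.0664).

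*Slc30a2*, which fills vesicles and is best known from the mammary gland, was low, at 1.97, 1.68 and 2.25 CPM in WT and 7.32, 1.78 and 4.07 in WT+ZnO NPs libraries, which overlapped. It was called in WT (log2 fold change 1.16 ± 0.40, adjusted p = 0.0391), and the call held in 9 of 21 alternatives. Without WT+ZnO NPs replicate 1 the value was 0.57 (adjusted p = 0.201), and the adjusted p was 0.0530 to 0.120 without any WT library, WT+ZnO NPs replicate 3, KO replicate 1 or KO replicate 3. It was 0.204 with the Y-linked covariate, 0.155 with the follicle covariate, 0.0584 without the low-count filter and 0.0809 with only the groups compared in the fit. Its level in KO was 3.23, 2.93 and 2.82 and in KO+ZnO NPs 4.36, 4.84 and 5.01 CPM (log2 fold change 0.66 ± 0.40, adjusted p = 0.275). *Slc30a4*, an endosomal exporter, *Slc30a5* and *Slc30a6*, which pair in the secretory pathway, were not called in any comparison. The log2 fold changes of these 3 in the 2 treated comparisons ranged from -0.47 to 0.22. The median over the tested exporters was 0.22 in WT and -0.06 in KO.

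Of the 14 importers, 3 rose and 3 fell in WT+ZnO NPs libraries, and these 42.9% are close to the 43.0% called among all genes. In KO+ZnO NPs against KO 1 rose and 2 fell, 21.4% beside 14.7% of all genes. The median log2 fold change was -0.08 in WT and -0.29 in KO. *Slc39a1* (chromosome 3, 90248172 to 90253612) encodes ZIP1, an importer of the plasma membrane found in many tissues. It was at 147, 189 and 166 CPM in WT and 80.8, 84.1 and 78.2 in WT+ZnO NPs libraries. The KO libraries were at 154, 174 and 137 and the KO+ZnO NPs libraries at 117, 125 and 105 CPM. Treated libraries were below vehicle libraries in both genotypes, with little spread. It fell by 1.05 ± 0.13 in WT (adjusted p = 0.000170), a level 2.07-fold lower, and by 0.42 ± 0.13 in KO (adjusted p = 0.0490), 1.34-fold lower. The fall in WT passed the threshold under all 21 alternatives, with -1.05 under the Y-linked and -0.96 under the follicle covariate. Y-linked transcripts hardly varied within WT or within WT+ZnO NPs libraries, so their coefficient rests on the KO and KO+ZnO NPs libraries. That fit cannot tell them apart from treatment in WT. The fall in KO was lost when any 1 of the 12 libraries was left out (adjusted p 0.0532 to 0.194). The interaction was 0.62 ± 0.18 (adjusted p = 0.0571). Its promoter window held no core.

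*Slc39a7*, which releases zinc from the endoplasmic reticulum, was at 9.15, 12.1 and 8.37 CPM in WT and 4.56, 4.80 and 3.80 in WT+ZnO NPs libraries and fell by 1.17 ± 0.20 (adjusted p = 0.00122). In KO it was at 8.89, 8.68 and 10.1 and in KO+ZnO NPs at 7.42, 5.80 and 5.88 CPM, also without overlap (-0.53 ± 0.20, adjusted p = 0.0933). Of its 2584 exonic bases 80.7% are shared with *Gm20427*, an annotated gene on the same strand, so its level is uncertain. That gene held 2, 4 and 1 counts in WT and 12, 15 and 12 in WT+ZnO NPs libraries (log2 fold change 2.51 ± 0.52, adjusted p = 0.00316), opposite to *Slc39a7*. *Slc39a12*, known from brain, had 4, 15 and 18 counts in WT and 0, 0 and 2 in WT+ZnO NPs libraries, without overlap and too few for a fold (adjusted p = 0.0119). It had 2, 12 and 11 counts in KO and 1, 3 and 2 in KO+ZnO NPs libraries, which overlapped and did not pass the test (adjusted p = 0.179). Its call in WT was lost with the Y-linked (adjusted p = 0.379) and the follicle covariate (adjusted p = 0.180).

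*Slc39a5*, an importer of gut and pancreas, was low. It was at 0.923, 0.526 and 1.10 CPM in WT and 2.96, 2.74 and 2.61 in WT+ZnO NPs libraries, a log2 fold change of 1.70 ± 0.32 (adjusted p = 0.00182). It was at 0.851, 0.803 and 0.704 CPM in KO and 1.57, 1.06 and 1.74 in KO+ZnO NPs libraries, without overlap and without passing the test (0.89 ± 0.32, adjusted p = 0.0820). The rise in WT passed the threshold under all 21 alternatives, with an adjusted p of at most 0.0474. The limit of the Y-linked covariate given for *Slc39a1* applies to *Slc39a5* as well. In all, 19 of 26 members did not overlap between WT+ZnO NPs and WT, 10 above and 9 below, beside 59.4% of all genes, and 11 did not overlap between KO+ZnO NPs and KO, 5 above and 6 below, beside 34.7%.

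**Figure D4:**
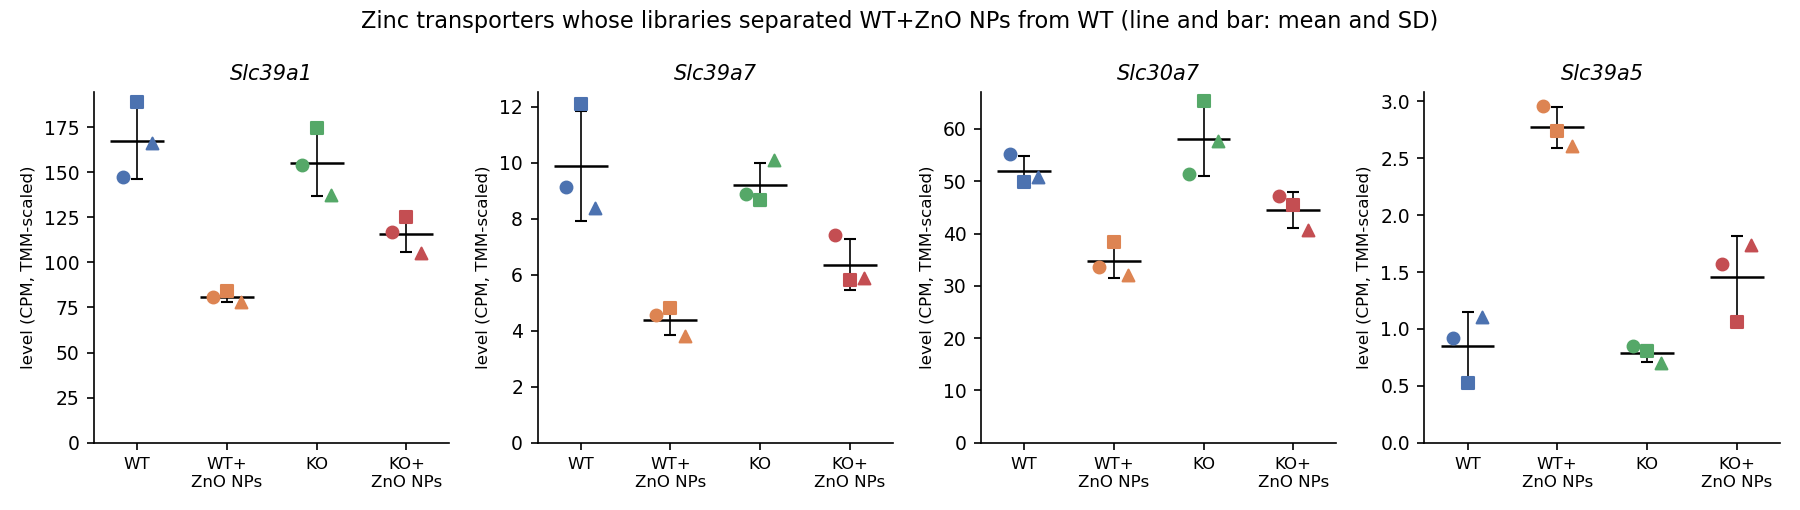
Level in CPM (vertical axes from 0) of *Slc39a1*, *Slc39a7*, *Slc30a7* and *Slc39a5* in each library of the 4 groups, with the line at the mean and the bar at 1 SD. The first 3 are lower in every treated library than in any vehicle library of the same genotype (*Slc39a1*: 78.2 to 84.1 in WT+ZnO NPs against 147 to 189 in WT), and *Slc39a5* is higher (2.61 to 2.96 against 0.526 to 1.10).

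*Slc39a6* and *Slc39a10* encode ZIP6 and ZIP10, which join into a heteromeric importer of the plasma membrane. *Slc39a10* (chromosome 1, 46807544 to 46892852) was at 63.6, 49.2 and 56.6 CPM in WT and 111, 274 and 425 in WT+ZnO NPs libraries. Its level was 144, 76.9 and 207 CPM in KO and in KO+ZnO NPs 165, 117 and 69.5 CPM, the latter within or below the range of KO. The log2 fold change was 2.26 ± 0.50 in WT (adjusted p = 0.00469) and -0.28 ± 0.48 in KO (adjusted p = 0.714). *Slc39a6* (chromosome 18, 24579881 to 24603817) was at 46.5, 40.6 and 45.9 CPM in WT and 89.5, 136 and 144 in WT+ZnO NPs libraries, and at 124, 82.2 and 81.6 in KO and 152, 199.6 and 38.5 in KO+ZnO NPs libraries. It rose by 1.48 ± 0.46 in WT (adjusted p = 0.0245), and the value in KO was 0.44 ± 0.45 (adjusted p = 0.531). Without KO+ZnO NPs replicate 3 the value of *Slc39a6* in KO was 0.89 (adjusted p = 0.0458), and without KO+ZnO NPs replicate 2 it was 0.0094 (adjusted p = 0.993). In WT its adjusted p was 0.0585 to 0.0775 without any WT library or WT+ZnO NPs replicate 2 or 3.

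The genotype by treatment interaction called 1 member, *Slc39a10*, at -2.54 ± 0.68 on the log2 scale (adjusted p = 0.0458), beside 8.68% of all genes (5.08% higher, 3.59% lower). Its level was higher with treatment in WT and not in KO, whose vehicle libraries were already above those of WT. The call was lost with an adjusted p of 0.0720 to 0.113 without any WT library, WT+ZnO NPs replicate 2 or 3, KO replicate 1 or 3, or KO+ZnO NPs replicate 2 or 3. With the follicle covariate, the interaction was -1.27 (adjusted p = 0.269), and the log2 fold changes in WT were 0.75 for *Slc39a10* (adjusted p = 0.369) and 0.40 for *Slc39a6* (adjusted p = 0.682). With the Y-linked covariate they were -2.19 (0.209) for the interaction, 1.85 (0.0907) and 1.01 (0.291). KO+ZnO NPs replicate 3, the library of its group with few follicle transcripts, was the lowest of its group for *Slc39a6*, *Slc39a8*, *Slc39a10*, *Slc39a14* and *Slc30a1*. The same held for *Mt1*, *Mt2*, *Mt4*, *Slc30a4*, *Slc30a7*, *Slc39a1*, *Slc39a2* and *Slc39a4*. This library was the highest of its group for members such as *Mtf1*, *Slc30a2*, *Slc30a5*, *Slc39a5*, *Slc39a11* and *Slc39a13*, and the share of all genes lowest in it was not counted. It was also the lowest of its group in summed markers of macrophages (98.9 against 244 and 234 CPM), melanocytes (274 against 363 and 462) and differentiated keratinocytes (1737 against 8616 and 4422). The part of follicle or other cell transcripts in these levels was not tested beyond the follicle covariate.

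**Figure D5:**
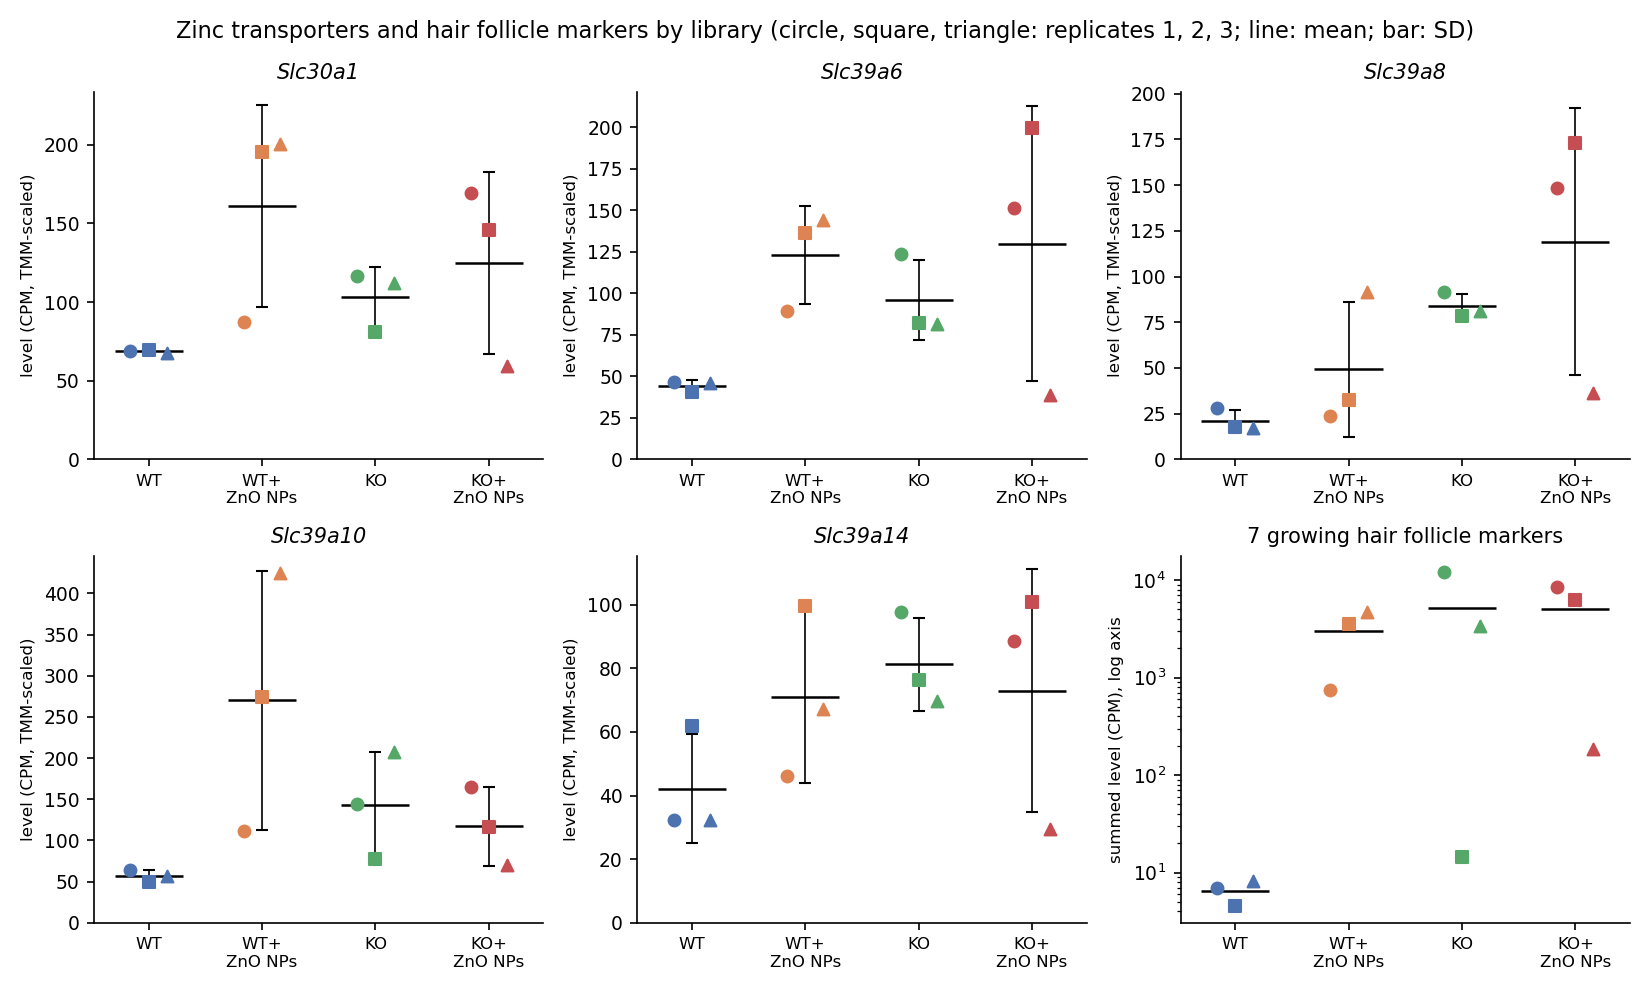
Level in CPM (vertical axes from 0) of *Slc30a1*, *Slc39a6*, *Slc39a8*, *Slc39a10* and *Slc39a14*, and the summed CPM of 7 growing hair follicle markers (log axis), in each library, with the line at the mean and, for the genes, the bar at 1 SD. KO+ZnO NPs replicate 3 is the lowest of its group in all 5 genes and in the follicle markers (184 against 6321 and 8597), and WT libraries are low in the markers (4.53 to 8.12).

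In KO skin treated with ZnO NPs, besides *Slc39a1*, 2 importers were called, both described as intracellular. *Slc39a13*, of the Golgi and known from connective tissue, was at 34.7, 35.2 and 32.6 CPM in WT, 38.5, 35.0 and 31.3 in WT+ZnO NPs, 43.1, 41.3 and 46.6 in KO and 29.5, 31.0 and 33.8 in KO+ZnO NPs libraries. It fell by 0.47 ± 0.11 in KO (adjusted p = 0.0212), from above every WT library to a range that overlaps WT, and was 0.032 ± 0.11 in WT (adjusted p = 0.828), with an interaction of -0.51 ± 0.16 (adjusted p = 0.0681). The 5 fibroblast markers had a median log2 fold change of -0.77 in the same comparison, with 1 called lower (*Pdgfra*, -1.28 ± 0.37, adjusted p = 0.0439) and their sums separated, and their part in the level of *Slc39a13* was not tested. The adjusted p of *Slc39a13* in KO was 0.0639, 0.0727 and 0.0526 without KO replicate 2, KO replicate 3 and KO+ZnO NPs replicate 2. *Slc39a11*, an importer placed in the Golgi, was at 44.4, 37.0 and 44.1 CPM in WT, 85.1, 51.9 and 61.2 in WT+ZnO NPs, 32.4, 38.8 and 39.4 in KO and 51.7, 52.8 and 97.7 in KO+ZnO NPs libraries. It was above the vehicle libraries in both genotypes, at 0.87 ± 0.26 in KO (adjusted p = 0.0447) and 0.66 ± 0.25 in WT (adjusted p = 0.0567). The value in KO was 0.52 (adjusted p = 0.0997) without KO+ZnO NPs replicate 3, and its call was also lost without any WT or KO library or WT+ZnO NPs replicate 3 (adjusted p 0.0589 to 0.110). In all, the call held in 9 of 23 alternatives, and without KO replicate 2 and KO+ZnO NPs replicate 3 together the value was 0.56 (adjusted p = 0.174). Without KO replicate 2 or KO replicate 3, none of the members was called in KO+ZnO NPs against KO. The share of all genes called in these fits is not given beside this, and the number of all genes called also moved over the alternatives.

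Between KO and WT skin under vehicle, 1 member of 26 was called, beside 8.18% of all genes (4.61% higher, 3.58% lower). This was *Slc39a4*, which encodes ZIP4, the importer whose loss causes the inherited zinc deficiency acrodermatitis enteropathica. It was at 2.48, 1.16 and 1.27 CPM in WT and 3.23, 4.50 and 4.14 in KO libraries, a log2 fold change of 1.27 ± 0.35 (adjusted p = 0.0488), and in the treated groups it was at 1.72, 1.32 and 1.23 (WT+ZnO NPs) and 1.70, 2.67 and 1.57 CPM (KO+ZnO NPs). The call was close to the threshold, held in 6 of 21 alternatives and was lost without WT replicate 2 or 3, any KO library, any WT+ZnO NPs library or KO+ZnO NPs replicate 1 (adjusted p 0.0566 to 0.189). The cell type markers that separate KO from WT, given with the libraries, move with this difference and the next, and their part was not tested. *Slc39a8*, which carries zinc and manganese, had a larger difference with a wider error, at 20.9 ± 6.03 CPM in WT and 83.8 ± 6.88 in KO libraries (SD, n = 3), without overlap (log2 fold change 2.01 ± 0.59, adjusted p = 0.0596). It was called in 5 of 21 alternatives, among them without WT+ZnO NPs replicate 3 (adjusted p = 0.0399) or KO+ZnO NPs replicate 3 (adjusted p = 0.0214), while the follicle covariate gave 1.22 (adjusted p = 0.439). Also above every WT library in all KO libraries, but not called, were *Slc30a4* (0.68 ± 0.21, adjusted p = 0.0664), *Slc39a13* (0.35 ± 0.11, adjusted p = 0.0729), *Slc39a10* (1.34 ± 0.49, adjusted p = 0.113), *Slc39a6* (1.11 ± 0.46, adjusted p = 0.151), *Slc39a14* (0.95 ± 0.44, adjusted p = 0.203), *Slc30a1*, *Slc30a2* and *Slc30a9* (adjusted p 0.358, 0.380 and 0.435). In all, 10 members were above and 2 below WT in every KO library, beside 38.5% of all genes without overlap.

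Between KO+ZnO NPs and WT+ZnO NPs libraries, edgeR called 0 members, beside 3.28% of all genes (2.13% higher, 1.16% lower). At an unadjusted p under 0.05 stood 7 members, and DESeq2 called 3 (*Slc30a4*, *Slc39a1* and *Slc39a5*). No share of all genes is given for these counts, and DESeq2 also called more of all genes than edgeR did. The counts are therefore not read as results about the members. *Slc30a4* was at 49.0, 48.4 and 32.7 CPM in WT+ZnO NPs and 77.4, 98.4 and 55.6 in KO+ZnO NPs libraries (0.83 ± 0.21, adjusted p = 0.0535), and *Slc39a1* had a log2 fold change of 0.51 ± 0.13 (adjusted p = 0.0535). The summed markers of differentiated keratinocytes also separated these groups, at 1737 to 8616 CPM in KO+ZnO NPs against 946 to 1364 in WT+ZnO NPs libraries. All 5 had positive log2 fold changes and 1 was called (*Krt1*, 2.71 ± 0.54, adjusted p = 0.0362). Their part in the levels of the members was not tested. Without KO+ZnO NPs replicate 3, 3 members were called (*Slc30a4*, *Slc39a1* and *Slc39a2*), again with no share of all genes given for that fit, so this count is not read as a result about the members. Members without overlap numbered 6, with 4 above and 2 below, beside 23.7% of all genes.

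The importers that were called in no comparison were *Slc39a2*, *Slc39a3*, *Slc39a8*, *Slc39a9* and *Slc39a14*. *Slc39a2*, described in differentiating keratinocytes, was at 10.7, 9.09 and 5.82 CPM in WT and 4.76, 5.03 and 4.43 in WT+ZnO NPs libraries, without overlap (-0.85 ± 0.41, adjusted p = 0.114). The markers of differentiated keratinocytes summed to 4151 to 7347 CPM in WT and 946 to 1364 in WT+ZnO NPs libraries, and their part in this level was not tested. *Slc39a14*, which carries zinc, iron and manganese, ranged from 29.5 to 101 CPM over the series with overlap in both treated comparisons. *Slc39a3* and *Slc39a9* had log2 fold changes of -0.35 and -0.28 in WT and -0.12 and -0.31 in KO.

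The 4 members below the filter had too few counts for the test. *Slc30a3*, of synaptic vesicles, held 0, 1 and 0 counts in WT, 5, 7 and 17 in WT+ZnO NPs, 12, 0 and 6 in KO and 6, 1 and 3 in KO+ZnO NPs libraries, and was called higher in WT+ZnO NPs against WT when the filter was dropped. *Slc30a8*, of insulin granules, held 1 count over all 12 libraries together, *Slc30a10*, which exports manganese, held at most 2 in a library, and *Tmem163*, a zinc efflux protein, held 3 to 11. Differences in the last 3 genes were not detectable at this depth.

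Genes for copper, a metal that metallothioneins also bind, were read from a list of 8. Of these, 2 were lower in WT+ZnO NPs than in WT libraries, a share of 25% beside 22.1% of all genes: *Slc31a2*, a copper transporter (83.0, 68.5 and 70.5 against 48.8, 33.5 and 40.4 CPM, log2 fold change -0.85 ± 0.25, adjusted p = 0.0191), and *Atp7a*, the copper pump mutated in Menkes disease (32.8, 28.8 and 29.2 against 17.8, 15.6 and 10.6 CPM, -1.04 ± 0.23, adjusted p = 0.00515). In KO+ZnO NPs against KO, 1 of 8 was higher, beside 6.57% of all genes. This was *Commd1* (21.6, 19.4 and 19.1 against 24.5, 36.5 and 27.0 CPM, 0.55 ± 0.16, adjusted p = 0.0405), whose interaction was 0.88 ± 0.22 (adjusted p = 0.0360). The median over the 8 was -0.18 in WT and -0.14 in KO. Because glucocorticoids also induce metallothioneins, a list of 8 of their target genes was set beside them. In WT+ZnO NPs against WT 2 of the 8 were called higher, beside 20.8% of all genes, and these were *Sgk1* (1.29 ± 0.38, adjusted p = 0.0199) and *Dusp1* (2.26 ± 0.64, adjusted p = 0.0163), a kinase and a phosphatase of signalling pathways. In KO+ZnO NPs against KO 2 were called higher, beside 6.57% of all genes, and these were *Ddit4*, an inhibitor of mTORC1 (1.60 ± 0.32, adjusted p = 0.0135), and *Fkbp5*, a chaperone of the glucocorticoid receptor. *Fkbp5* was higher in KO+ZnO NPs than in KO (1.32 ± 0.28, adjusted p = 0.0167) and was -0.47 ± 0.28 in WT+ZnO NPs against WT (adjusted p = 0.196). *Tsc22d3* and *Per1* were not called in either treated comparison (-0.17 and 0.73 in WT, 0.75 and 0.73 in KO). The median over the 8 was 0.23 in WT and 0.74 in KO, where 7 of 8 were positive, and the part of glucocorticoids in the metallothionein levels was not tested.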

How the data were processed

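Full-thickness dorsal skin of 4 groups of 3 mice was profiled by RNA-seq, and the authors deposited a table of raw counts per Ensembl gene. The study's methods name STAR and HTSeq, whereas the submitters' processing notes name HISAT2 2.0.5 and mm10, and the library kit and sequencer are also named differently, so how reads were aligned is not settled. Neither the authors' annotation nor strand use is given in the sources used here. GENCODE M21 (GRCm38) matched 52489 of the 52636 genes and gave symbols, coordinates and exon lengths. The table held 0 rows that name no gene. No label says that libraries came from separate litters or batches, so p-values measure the spread between these samples. Replicates of a group differed beyond sampling noise (chi-square per degree of freedom 39.3 to 168.9).

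Genes with low counts were removed with edgeR's default filter, which left 18822, and counts were scaled by TMM factors and fitted with edgeR 4.0.16 in R 4.3.3 (quasi-likelihood test, all 12 libraries in 1 fit, Benjamini-Hochberg adjustment over all genes tested, threshold 0.05, two-sided). The SE of a log2 fold change was taken from the fold change and its F value and is approximate. Depth was 21076320 to 28867802 counts, and low genes were limited by counting error as well as by the spread. The scripts were tested on simulated data. Promoters were read from RefSeq (GRCm38.p6), and of the 30 members 26 had an entry. No protein sequence was used.

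The members and all gene lists were chosen with earlier results of these data known. The genes given with values for every library were the metallothioneins, *Mtf1*, *Slc30a1* and each member called in any comparison. Of the other lists, values were given for the called MTF1 targets and copper genes and for *Fkbp5*, *Tsc22d3* and *Per1* of the glucocorticoid targets, not in every library. Other genes and members named were singled out after their values were seen. Results were recomputed with RLE factors, with library size alone, without the filter, with a minimum of 10 counts in every library, with DESeq2 1.42.0, only the groups compared, a replicate block, a Y-linked covariate, leaving out each replicate, and leaving out the Y-positive replicate 1 of KO and KO+ZnO NPs. Not every setting covered every result, and a single gene had 19 to 23 alternatives. The interaction had no fit of only the groups compared, and a gene removed by a filter had no value there. A hair follicle covariate and leaving out KO replicate 2 with KO+ZnO NPs replicate 3, the libraries of their groups with few follicle transcripts, were chosen after seeing the data. Libraries were left out in pairs for KO+ZnO NPs against KO only. The main test took libraries of the same replicate number as unpaired.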

Additional observations from a re-analysis of the deposited data

Results flagged for a closer look

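The difference in *Slc39a10* between treated and vehicle libraries was itself unequal between the genotypes, by the interaction term. Its log2 fold change was 2.26 ± 0.50 between WT+ZnO NPs and WT libraries and -0.28 ± 0.48 in KO+ZnO NPs against KO, and the difference was -2.54 ± 0.68 (SE, edgeR's quasi-likelihood test, adjusted p = 0.0458). It was called in 8 of 20 alternatives and was -1.27 with the follicle covariate (adjusted p = 0.269). Treatment cannot be told apart from the Y-linked, follicle, macrophage and other cell marker differences between WT+ZnO NPs and WT libraries. The *Cdc42* transcript goes against the label WT+ZnO NPs, and its level in bulk skin does not settle the genotype.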

How the results depend on the processing

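Of the counts of called genes, 56 stayed within 1.5 times the reported value and 50 moved further. The counts of members by setting are given here without the share of all genes in the same setting. The number of all genes called moved as well, so these counts are not read as results about the members. Of the values for single genes, 619 kept direction and side of the threshold, 121 lost the threshold, 7 reached it and 7 changed sign, and the cause was not tested. For KO against WT (1 member called) the count was 0 with RLE factors, 2 with library size only, 0 with the replicate block, 0 with the Y-linked and 0 with the follicle covariate, 5 with DESeq2, 6 with only the groups compared and 0 to 4 when a replicate was left out. For WT+ZnO NPs against WT (13) it was 3 with the Y-linked and 4 with the follicle covariate, 13 with the replicate block (12 shared, with *Slc30a4* in place of *Slc30a2*), and 8 to 17 when a replicate was left out. For KO+ZnO NPs against KO (5) it was 3 without the low-count filter, 0 with only the groups compared (10 at an unadjusted p under 0.05, and 7 called by DESeq2), 3 without the Y-positive replicates 1, 0 without both follicle-low libraries (6 at an unadjusted p under 0.05), 4 with the replicate block and 0 to 4 when a replicate was left out. For KO+ZnO NPs against WT+ZnO NPs (0) it was 2 with at least 10 counts in every library, 2 with the replicate block, 3 with DESeq2 and 0 to 3 when a replicate was left out. For the interaction (1) it was 2 with library size only, 2 with at least 10 counts, 0 with the Y-linked and 0 with the follicle covariate, 3 with DESeq2, 1 with the replicate block (a member other than *Slc39a10*) and 0 to 2 when a replicate was left out. For the interaction, *Mt2* ranged up to 0.83 with a replicate left out, and turned to -0.24 without WT replicate 2 and -0.25 without KO+ZnO NPs replicate 2, and *Mt4* to 0.64 and 0.75 with the Y-linked and follicle covariate. For KO+ZnO NPs against KO, *Slc30a1* turned to -0.0092 without KO+ZnO NPs replicate 1 (up to 0.63 without replicate 3), and *Slc39a10*, which reached -0.61 without KO+ZnO NPs replicate 1, to 0.084 without KO replicate 3 and 0.0039 without KO+ZnO NPs replicate 3. Same-numbered libraries of different groups correlated at -0.34 to 0.43 over 18 pairs. Between KO and KO+ZnO NPs the values were 0.43, 0.16 and 0.05 for replicates 1, 2 and 3, and replicate 1 is the Y-positive library of both groups. A pairing within KO is therefore not excluded. The replicate block took away 4 calls: the interaction of *Slc39a10* (-2.41, adjusted p = 0.0771), *Slc30a2* in WT+ZnO NPs against WT (1.06, adjusted p = 0.0582), *Slc39a11* in KO+ZnO NPs against KO (0.83, adjusted p = 0.0541) and *Slc39a4* in KO against WT (1.31, adjusted p = 0.0653). Over all genes the number called, 8085 in WT+ZnO NPs against WT, was 2661 with the follicle and 3982 with the Y-linked covariate, and in the other comparisons it ranged over the alternatives from 243 to 3029 (1540 as reported, KO against WT), 24 to 4290 (2759, KO+ZnO NPs against KO), 0 to 2322 (618, KO+ZnO NPs against WT+ZnO NPs) and 140 to 3147 (1633, interaction), highest with DESeq2. Scaling by library size only moved the median log2 fold change of all genes in WT+ZnO NPs against WT from 0.06 to 0.16, in KO+ZnO NPs against WT+ZnO NPs from 0.04 to -0.11 and in the interaction from 0.02 to -0.13. At this depth, members with few counts per library could not be tested.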

Other observations

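Genes for iron handling were read from a list of 8. In the libraries labelled WT+ZnO NPs 4 of the 8 were lower than in WT, none was higher (22.1% and 20.8% of all genes), and the median log2 fold change was -0.98 beside 0.06 over all genes tested. In KO+ZnO NPs against KO 1 of 8 was lower (8.09% of all genes) and the median was -0.50, beside 0.01 over all genes. Between KO and WT skin 1 of 8 was lower, beside 3.58% of all genes, and in the interaction 1 of 8 was higher, beside 5.08%. Macrophages, cells that recycle iron, had all 4 of their markers called lower in both treated comparisons, and their part in the iron list was not tested.

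Of the 8 glucocorticoid-responsive genes, 2 were higher in KO+ZnO NPs against WT+ZnO NPs and none lower, beside 2.13% and 1.16% of all genes. *Fkbp5* was higher in KO+ZnO NPs than in WT+ZnO NPs libraries by 2.08 ± 0.29 on the log2 scale (SE, edgeR's quasi-likelihood test, adjusted p = 0.0205), with an interaction of 1.79 ± 0.40 (adjusted p = 0.0256). Melanocyte markers summed to 12.5 to 34.0 CPM in WT and 368 to 1154 in WT+ZnO NPs libraries, and to 40.7 to 192 in KO and 274 to 462 in KO+ZnO NPs libraries, without overlap in either genotype. Differentiated keratinocyte markers summed to 7531 to 15477 CPM in KO and 1737 to 8616 in KO+ZnO NPs libraries, which overlapped.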
